A study of Silurus asotus with 15 samples.

Results

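The genes described here encode the peptide hormones of the endocrine pancreas, the 2 neuroendocrine convertases that cut such hormones out of their precursors, and the homeobox factor PDX1, in the Amur catfish, Silurus asotus. They were chosen by protein name in the deposited annotation: insulin, glucagon, somatostatin of any number, islet amyloid polypeptide, peptide YY, neuroendocrine convertase 1 or 2, and pancreas/duodenum homeobox protein 1, with receptors and insulin-like proteins left out. This gave 13 genes of 25089, all 13 with expression values, made up of 9 hormone genes, 2 convertase genes and 2 PDX1 genes.

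The study sequenced polyadenylated RNA from adult fish taken from a benthic habitat. There are 15 libraries with 1 library per tissue: pancreas, pituitary, brain, gill, liver, spleen, kidney, head kidney, heart, muscle, skin, maxillary barbel, mandibular barbel, ovary and testis. No library is of intestine or stomach, so a gene called highest or enriched in a library is so only among these 15. The labels do not give the number, sex or age in years of the fish, or whether fish were pooled, and no group carries a treatment or genetic change. With 1 library per tissue there is no replicate error, so every difference below compares libraries, has no replicate check and carries no p-value.

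Values are FPKM, fragment counts scaled by transcript length and by library size, as the authors deposited them. Summed over genes, the skin library had the least FPKM, 239905, and the pancreas library the most, 738341. The libraries labelled brain and gill carried each other's marker genes. SNAP25, a synaptic protein of neurons, was at 1659 FPKM in the library labelled gill and 0.0938 FPKM in the library labelled brain, while GCM2, a factor of gill development in zebrafish, was at 96.2 FPKM in the library labelled brain and 0.0436 FPKM in the library labelled gill. They are therefore called the library labelled gill and the library labelled brain throughout. The pancreas library fitted its label: 9 of 11 measured exocrine pancreas genes were highest there, led by a cationic trypsin gene at 81708 FPKM. The pituitary library did too, with all 8 pituitary marker genes highest there. In such bulk tissue, fewer cells of a type and less RNA per cell cannot be told apart.

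As background, the endocrine cells of the vertebrate pancreas each make mainly one hormone: beta cells insulin, alpha cells glucagon, delta cells somatostatin. In many bony fishes these cells are gathered in compact islets called Brockmann bodies. Each hormone is made as a longer precursor, which neuroendocrine convertase 1 (PC1) and neuroendocrine convertase 2 (PC2) cut at pairs of basic residues inside secretory granules, and the same enzymes process the precursors of pituitary hormones and of brain neuropeptides. Bony fishes carry several somatostatin and glucagon genes.

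A gene was called tissue-enriched where its highest library reached 5 FPKM and exceeded every other library 5-fold or more, on FPKM plus 1. By this rule 8 of the 13 genes were tissue-enriched, against a background of 9.38% of all genes in any library. In the pancreas library 7 of 13 were enriched, 6 hormone genes and 1 PDX1 gene, where 0.347% of all genes (87 genes) were. In the pituitary library 1 of 13 was enriched, PC2, where 0.359% of all genes were. The pancreas was the highest library for 8 of the genes, against 1.37% of all genes with any signal. The pituitary was the highest for 3, against 4.29%, and the testis for 1, against 11%. The last of the 13 was listed at 0 in every library. At 1 FPKM or more, 9 of the 13 were detected in pancreas, against 39.7% of all genes, 4 in pituitary, against 56.1%, and 3 in the library labelled gill, against 59%. Liver, spleen, ovary, testis and the library labelled brain had 1 each, and the other libraries had none. The share of all genes at 1 FPKM was not counted for these libraries, so their low counts have no background. Their median over all genes ran from 0.397 FPKM in muscle to 2.67 FPKM in testis. With the libraries labelled brain and gill left out, the same 8 genes were tissue-enriched and 8 were highest in pancreas.

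**Figure D1:**
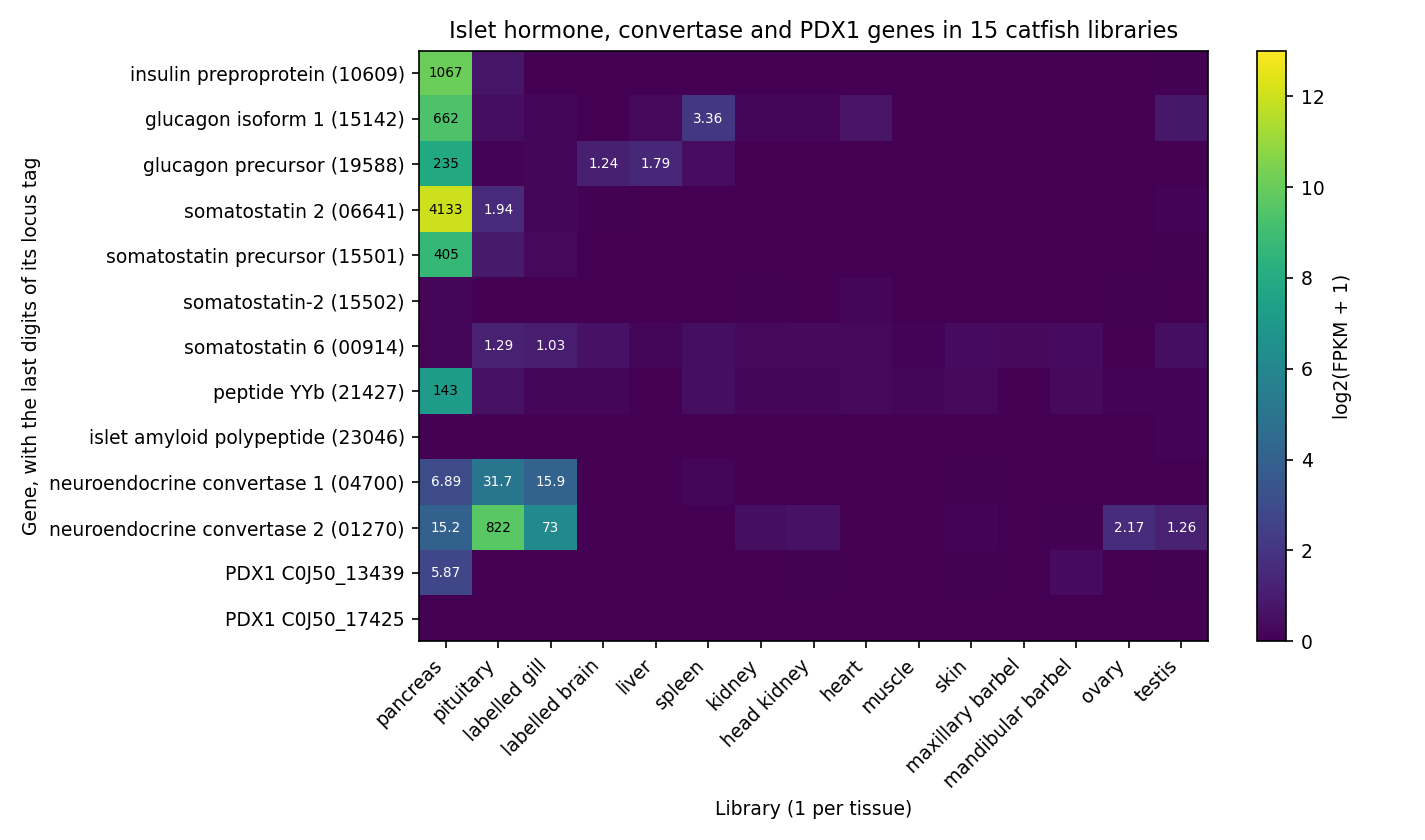
Level of each of the 13 genes (rows, with the last digits of the locus tag) in each of the 15 libraries (columns); colour is log2(FPKM + 1) and values of at least 1 FPKM are printed in the cells. Of the hormone genes 6 are bright in the pancreas column alone, up to 4133 FPKM, while both convertases are brightest in the pituitary column, at 31.7 and 822 FPKM.

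Somatostatin 2 was the most abundant hormone transcript. Somatostatin, the product of delta cells, restrains the release of insulin and glucagon. The gene (C0J50_06641, scaffold588 from 3691490 to 3692360, minus strand, 2 exons, 318 coding bases) stood at 4133 FPKM in pancreas, rank 18 of all genes in that library. It was at 1.94 FPKM in pituitary, at 0.117 FPKM in the library labelled gill and at 0.0885 FPKM in testis. It was lower still in the library labelled brain and in liver, and was listed at 0 in the other 9 libraries. The pancreas level was 2126-fold above the next library.

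A second somatostatin gene, annotated as somatostatin precursor (C0J50_15501, scaffold178137 from 2435855 to 2436579, minus strand, 2 exons), was also highest in pancreas. It stood at 405 FPKM in pancreas, 0.933 FPKM in pituitary and 0.220 FPKM in the library labelled gill. In 10 libraries its value was 0. The annotation places a further copy, somatostatin-2 (C0J50_15502, from 2450428 to 2451746 on the same scaffold and strand), 13848 bases away. This copy did not exceed 0.186 FPKM in any library, its pancreas value, and was listed at 0 in 11. The fourth, somatostatin 6 (C0J50_00914, scaffold34 from 11427021 to 11427997, minus strand, 2 exons), had a different order of libraries. It was highest in pituitary at 1.29 FPKM, then in the library labelled gill at 1.03 FPKM and the library labelled brain at 0.562 FPKM, and was at 0.117 FPKM in pancreas. So the 4 somatostatin genes split into 2 that were high in pancreas and 2 that stayed at or below 1.29 FPKM in every library.

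Insulin, the beta cell hormone that lowers blood glucose, was represented by 1 gene (C0J50_10609, scaffold10507 from 1770729 to 1771250, minus strand, 2 exons, 330 coding bases, a model marked partial). It stood at 1067 FPKM in pancreas, rank 80 in that library. The next values were 0.651 FPKM in pituitary, 0.0539 FPKM in testis and 0.0322 FPKM in liver, and 9 libraries were listed at 0. The fold over the next library was 1639.

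Glucagon, the alpha cell hormone that raises blood glucose, had 2 genes, and both were highest in pancreas. Glucagon isoform 1 (C0J50_15142, scaffold178128 from 299911 to 304706, minus strand, 5 exons, 522 coding bases) stood at 662 FPKM in pancreas, 3.36 FPKM in spleen, 0.801 FPKM in testis and 0.598 FPKM in heart, and was listed at 0 in muscle and skin. Glucagon precursor (C0J50_19588, scaffold178212 from 560855 to 561659, plus strand, 3 exons, 360 coding bases, a partial model) stood at 235 FPKM in pancreas, 1.79 FPKM in liver and 1.24 FPKM in the library labelled brain. Its value was 0 in 9 libraries. Outside the pancreas the glucagon genes therefore had different highest libraries: spleen for isoform 1, and liver and the library labelled brain for the other.

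Peptide YYb (C0J50_21427, scaffold178241 from 1277228 to 1280207, plus strand, 3 exons), of the family of pancreatic polypeptide and neuropeptide Y, stood at 143 FPKM in pancreas. Its next libraries were pituitary at 0.477 FPKM and spleen at 0.405 FPKM. Liver was its only library listed at 0, so it was above 0 in 14 libraries, as somatostatin 6 was. Islet amyloid polypeptide (C0J50_23046), which mammalian beta cells release together with insulin, was not a pancreas transcript in these data. It was listed at 0 in pancreas and in 14 libraries in all, and was at 0.0802 FPKM in testis. Its gene model is marked partial.

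Put on the per-length scale of FPKM, the 9 hormone genes summed to 6644 FPKM in pancreas, or 0.900% of all FPKM in that library. Somatostatin 2 alone was 62.2% of the hormone sum and 3.88 times the insulin level. Insulin was 16.1%, glucagon isoform 1 was 9.96%, somatostatin precursor was 6.10%, glucagon precursor was 3.53% and peptide YYb was 2.15%. By hormone, all somatostatin genes together were 68.3% and both glucagon genes 13.5%. Within each pair of pancreas genes one led: somatostatin 2 was 10.2 times somatostatin precursor, and glucagon isoform 1 was 2.82 times glucagon precursor. FPKM divides by the length of the model, and the insulin and glucagon precursor models are partial, so their levels depend on how much of each gene was modelled. Shares of fragments were also estimated, by multiplying each FPKM by the coding length of its model. This assumes that FPKM was scaled by that length. On that scale somatostatin 2 was 57.1%, insulin 15.3% and glucagon isoform 1 15.02%.

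**Figure D2:**
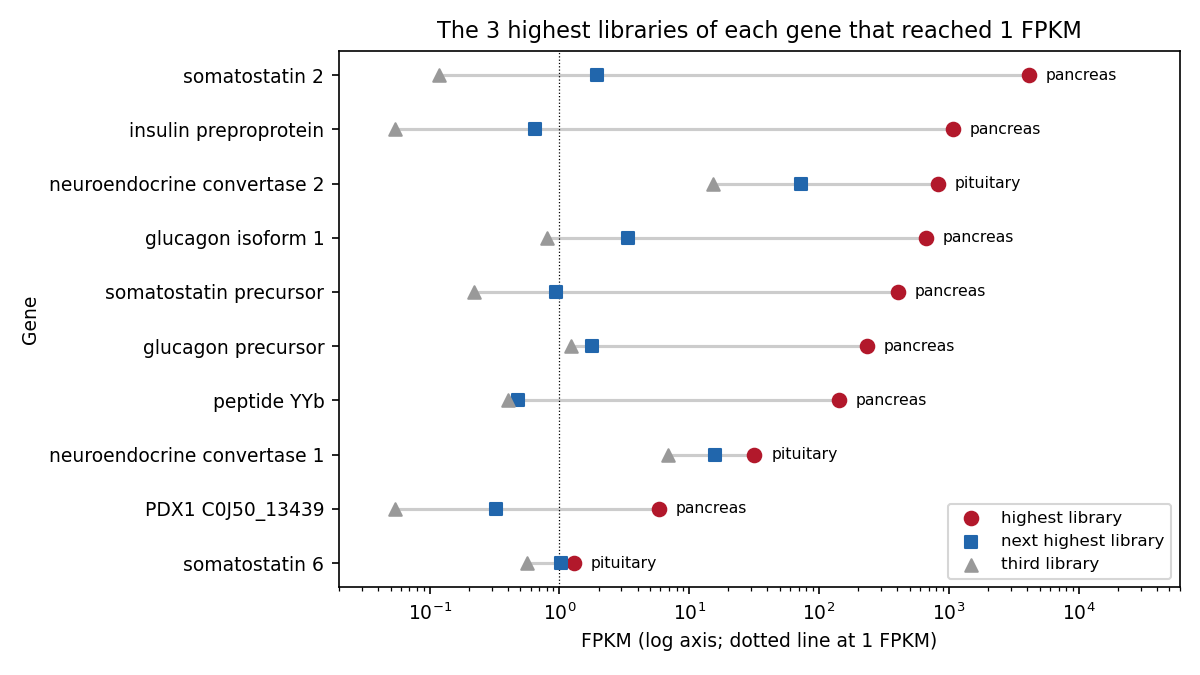
FPKM (log axis) of the highest, next and the third library for each of the 10 genes that reached 1 FPKM; the name of the highest library stands beside its point and the dotted line marks 1 FPKM. The 6 pancreas hormone genes are separated from their next library by 131-fold to 2126-fold, while PC1 differs 1.99-fold between pituitary and the library labelled gill.

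Outside the pancreas the hormone genes were low, and the summed hormone level ran from 0.171 FPKM in ovary to 5.78 FPKM in pituitary. In the pituitary library insulin, somatostatin 2 and both glucagon genes were close to the level of digestive enzyme transcripts. For this, both are given as a percent of the same gene's pancreas level. Taking 1 locus per gene name, 9 digestive enzyme and acinar genes were enriched in pancreas with at least 100 FPKM there. All 9 were above 0 in pituitary, at 0.0524% to 0.389% of their pancreas level, with a median of 0.0572%. Somatostatin 2 was at 0.0470%, insulin at 0.0610%, glucagon isoform 1 at 0.0575% and glucagon precursor at 0.0450% of their pancreas level. Somatostatin precursor, at 0.230%, and peptide YYb, at 0.334%, were higher than all 8 digestive enzyme genes, of which CEL was highest at 0.0913%. The ninth gene, the transcription factor PTF1A, alone set the top of the range at 0.389%, from 0.447 FPKM in pituitary. The part of these exocrine transcripts in the hormone values was not tested.

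In 8 of the 14 other libraries at least 1 hormone gene stood above all 9 of these genes on this scale. In 7 of them peptide YYb did. The count depends on PTF1A, a transcription factor and not an enzyme. PTF1A was the highest of the 9 in pituitary, ovary, maxillary barbel and the library labelled gill. Peptide YYb was above the 8 digestive enzyme genes in pituitary too. In the library labelled gill it was at 0.124%, against at most 0.0698% for them, and in ovary at 0.0685%, against 0.0595%. The highest hormone values on this scale were of the glucagon genes. Glucagon isoform 1 in spleen was at 0.508% of its pancreas level, where the enzyme genes ran from 0.00286% to 0.0355%. Peptide YYb, at 0.283%, and glucagon precursor, at 0.145%, were also above that range in spleen, while insulin and somatostatin 2 were listed at 0 there. Glucagon precursor in liver was at 0.765%, where these 9 enzyme genes ran from 0% to 0.0529%. In the library labelled brain it was at 0.528%, where they ran up to 0.0224%. A phospholipase A2 locus not among the 9 (PLA2G1B, C0J50_16890) was at 14.1 FPKM in liver and 1233 FPKM in pancreas. That is a higher percent than glucagon precursor had in liver. The 3 glucagon values were also put in steps of the FPKM scale, 1 step being a rough estimate of the value of 1 fragment. Some values above 0 were under 1 step, such as 0.0378 for peptide YYb in maxillary barbel, so steps are not read counts. Glucagon isoform 1 in spleen came to about 79.2 steps. Glucagon precursor came to about 29.9 in liver and 20.1 in the library labelled brain. Insulin in pituitary came to about 10.6 steps. Peptide YYb had even fewer in the 7 libraries where it stood above all 9 genes. It ran there from about 0.695 steps in muscle to 8.17 in spleen, near the floor of the scale. In ovary it came to about 2.17 steps and in the library labelled gill to 3.65.

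**Figure D3:**
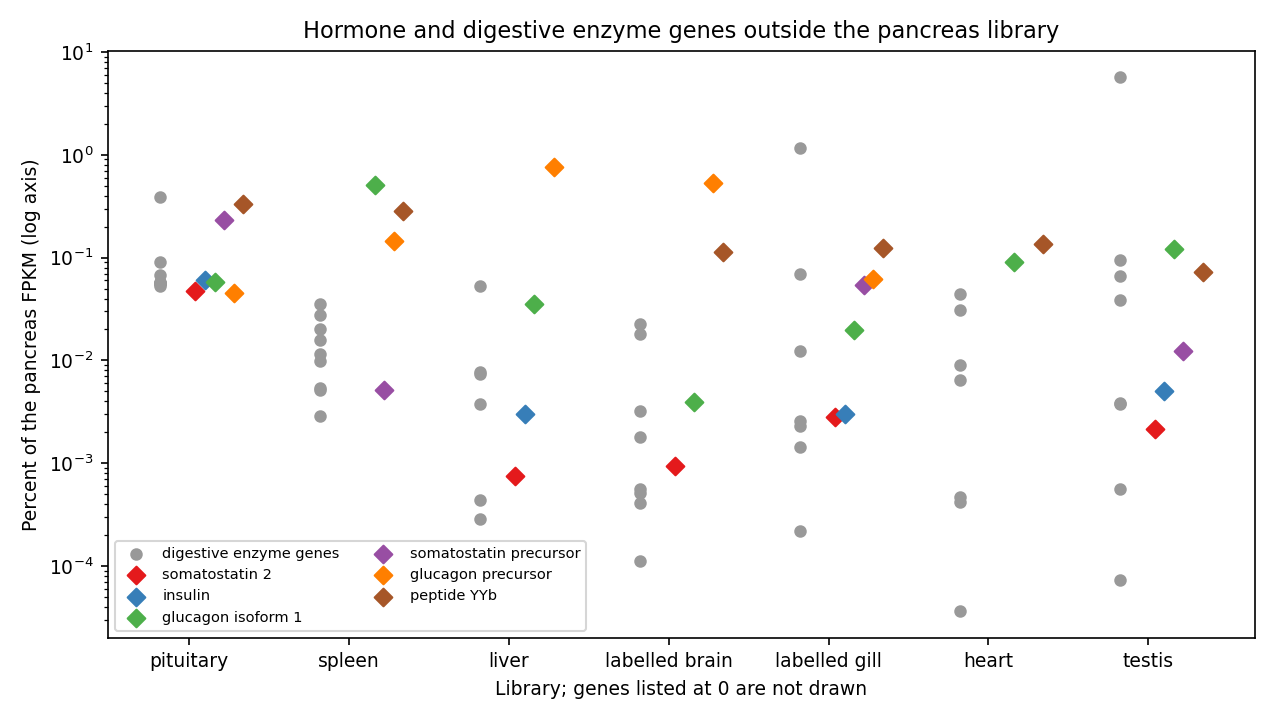
Percent of the gene's own pancreas FPKM (log axis) in 7 libraries, for 6 hormone genes (coloured diamonds) and 9 digestive enzyme and acinar genes (grey circles); genes listed at 0 are not drawn. In pituitary the hormones span 0.0450% to 0.334% and the 9 grey genes 0.0524% to 0.389%. The highest grey point there is the transcription factor PTF1A, and the next is CEL at 0.0913%. In spleen glucagon isoform 1 (0.508%) and in liver glucagon precursor (0.765%) lie above all 9 of these enzyme genes. Further loci of the same enzyme names are not drawn.

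The convertases had a different distribution from the hormones. PC2 (C0J50_01270, scaffold35 from 1449973 to 1478674, minus strand, 12 exons, 1923 coding bases, a partial model), which in mammals makes glucagon from its precursor and melanocyte-stimulating hormone from pro-opiomelanocortin, stood at 822 FPKM in pituitary, 73.0 FPKM in the library labelled gill and 15.2 FPKM in pancreas. It was also above 1 FPKM in ovary, at 2.17 FPKM, and testis, at 1.26 FPKM. PC1 (C0J50_04700, scaffold330 from 7233058 to 7249005, plus strand, 14 exons, 2310 coding bases, a partial model), which in mammals makes corticotropin from pro-opiomelanocortin and cuts proinsulin, stood at 31.7 FPKM in pituitary, 15.9 FPKM in the library labelled gill and 6.89 FPKM in pancreas. In every other library it was under 0.2 FPKM, the highest being spleen at 0.192 FPKM. Both genes thus had the same 3 highest libraries in the same order, and each was listed at 0 in 4 libraries.

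PC2 exceeded PC1 in each of the 3 libraries, by unequal amounts. The ratio of PC2 to PC1 was 25.96 in pituitary, 4.59 in the library labelled gill and 2.20 in pancreas. Across the 15 libraries the 2 genes correlated with Pearson r of 0.970 on log2(FPKM + 1), and with r of 0.975 over the 14 libraries other than pancreas. These correlations are descriptions, since most libraries are near 0 and 3 libraries set them.

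A gene was called different between a pair of libraries where log2(FPKM + 1) differed by at least 2 and the higher library reached 5 FPKM. Between pancreas and pituitary, 7 of the 13 genes were higher in pancreas, against 1.3% of all genes, and 2 were lower, PC1 and PC2, against 5.21%. The 7 were the 6 hormone genes and the PDX1 gene already called enriched in pancreas. Any gene so called also passes this rule against each other library, so the 7 add nothing to that count. The same holds for PC2, enriched in pituitary, against pancreas and the library labelled gill. PC2 was higher in pituitary by 5.67 on the log2 scale, a ratio of 54.2, and PC1 by 2.05, a ratio of 4.595. Between the library labelled gill and pituitary none of the 13 was higher in the former, against 6.27% of all genes, and PC2 was lower, against 2.14%, by 3.48 on the log2 scale. Between the library labelled gill and pancreas PC2 was higher, against 13.7%, by 2.19 on the log2 scale, and the same 7 pancreas genes were lower, against 1.79%. These comparisons share libraries and are not independent.

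Over all genes the median level was 0.463 FPKM in pancreas, above muscle at 0.397 FPKM. Among the 5659 genes above 1 FPKM in every library, the typical gene was lowest in pancreas. Its median ratio to the geometric mean of the libraries was 0.517 in pancreas, 0.949 in pituitary and 0.9996 in the library labelled gill. Rescaled by these ratios, PC1 differed by 1.26 between pituitary and pancreas and PC2 by 1.29 between the library labelled gill and pancreas, both under the limit of 2. The PC1 levels in pancreas and in the library labelled gill then differed by 0.24, against 1.10 as deposited, and rescaled to a common sum PC1 differed between pituitary and the library labelled gill by 0.18, against 0.95, so the order of PC1 among the 3 libraries rests on small differences under those scalings. PC2 remained higher in pituitary than in pancreas, by 4.84 after rescaling by median ratios and by 6.14 on a common sum.

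Genes that work with the convertases were also lower in pancreas than in pituitary. A list of genes of the regulated secretory pathway, the granules in which convertases work, had 15 measured genes. All 15 were higher in both pituitary and the library labelled gill than in pancreas, an order that 75% of comparably expressed genes also had. For 9 the order was pituitary, then the library labelled gill, then pancreas, as for the convertases, against 20.3% of comparably expressed genes, and for 6 the library labelled gill came first. These counts take 1 locus per gene. They and the counts of loci below use FPKM as deposited and were not repeated after rescaling. Some gaps were small. Calcium-dependent secretion activator 1 (CADPS) was at 1.22 FPKM in the library labelled gill and 0.675 FPKM in pancreas. The QPCT locus C0J50_24333 was at 29.6 and 15.1 FPKM. Over all 20 matched loci at 5 FPKM or more in one of these libraries, 19 were lowest in pancreas, 9 led by pituitary and 10 by the library labelled gill. The exception was a locus of glutaminyl-peptide cyclotransferase (QPCT, C0J50_02238), at 9.25 FPKM in pancreas, 5.96 FPKM in pituitary and 3.93 FPKM in the library labelled gill. Carboxypeptidase E, which trims the basic residues left after the cut, stood at 615 FPKM in pituitary, 188 FPKM in the library labelled gill and 46.6 FPKM in pancreas. 7B2, the chaperone of PC2, stood at 334, 119 and 11.2 FPKM in the same order, and the PC1 inhibitor-like gene at 263, 166 and 17.4 FPKM. Secretogranin-2, a granule protein, stood at 387, 155 and 5.21 FPKM, and secretogranin-3 at 342, 145 and 20.3 FPKM.

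Other granule genes differed in order or in level. Peptidylglycine alpha-amidating monooxygenase, which amidates the ends of peptides, was highest in the library labelled gill at 78.3 FPKM, with 51.0 FPKM in pituitary and 11.8 FPKM in pancreas. Chromogranin-A was low throughout, at 5.71, 2.84 and 0.182 FPKM in pituitary, the library labelled gill and pancreas. Relative to PC2, 7B2 was 0.407 in pituitary, 0.736 in pancreas and 1.63 in the library labelled gill. Carboxypeptidase E was 0.747, 3.08 and 2.57 times PC2 in those libraries. PC2 thus exceeded its chaperone in pituitary and pancreas and was below it in the library labelled gill.

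**Figure D4:**
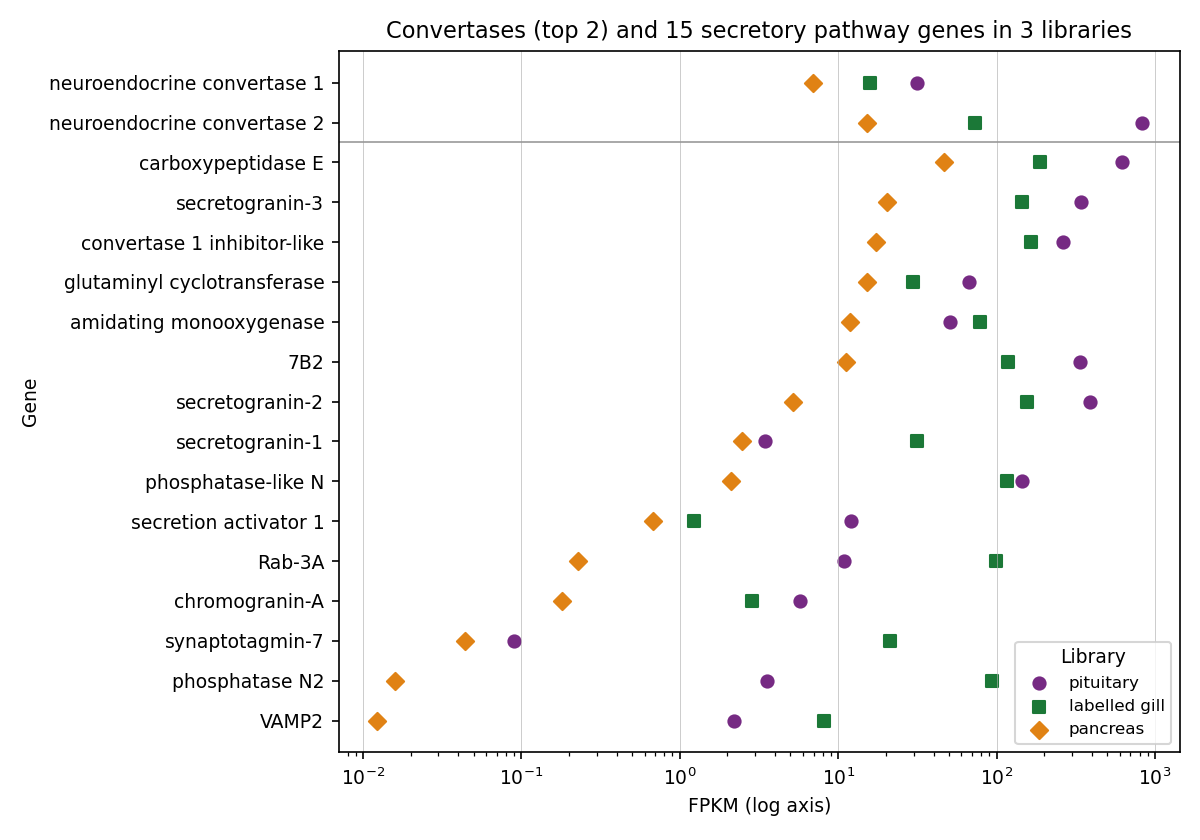
FPKM (log axis) of PC1, PC2 and 15 secretory pathway genes in pituitary (circles), the library labelled gill (squares) and pancreas (diamonds). Pancreas is the lowest of the 3 for every gene shown, and PC2 in pituitary, at 822 FPKM, is the highest value drawn.

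Pituitary marker genes were also read in the pancreas library. The 8 pituitary marker genes had a median of 0.00882% and a maximum of 0.0234% of their pituitary level in the pancreas library. PC2 was at 1.84% and PC1 at 21.8% of their pituitary level. The part of pituitary transcripts in the convertase values was not tested. Of 14 measured neuron and glia genes, with 1 locus per gene, 2 reached 1 FPKM in the same library, against 39.7% of all genes. They were SNAP25 at 2.35 FPKM and S100B, a glial calcium-binding protein, at 2.91 FPKM. A further complexin-2 locus (C0J50_10013), not among the 14, was higher, at 7.05 FPKM in pancreas. Other further loci of these genes were under 1 FPKM there. The median of the 14 there was 0.165 FPKM, against 0.463 FPKM for all genes.

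Other proprotein convertases, which act on the general secretory route, were highest outside pancreas. None of the 5 measured had pancreas among its 3 highest libraries, a count near the 4.98% of all genes with any signal. Furin, the ubiquitous convertase of the Golgi, was at 14.99 FPKM in pancreas, close to PC2 there, but was highest in ovary at 89.2 FPKM and in liver at 73.4 FPKM. PCSK5 and PCSK6 were highest in liver, at 9.18 and 14.6 FPKM, and site-1 protease (MBTPS1) was highest in ovary at 37.7 FPKM.

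PDX1, the homeobox factor needed for formation of the pancreas and for insulin gene expression in mammals, was annotated at 2 loci with unlike values. The first (C0J50_13439, scaffold176897 from 533601 to 536915, plus strand, 3 exons, 789 coding bases) stood at 5.87 FPKM in pancreas, 0.323 FPKM in mandibular barbel and at most 0.0540 FPKM elsewhere, with 5 libraries listed at 0. It was pancreas-enriched by a small margin, with a log2 difference of 2.38, and the enrichment was lost when the libraries were rescaled to a common sum, when the highest library had to reach 10 FPKM and under a 10-fold rule. The second (C0J50_17425, scaffold178184 from 1032984 to 1036103, plus strand, 2 exons, 621 coding bases) was listed at 0 in all 15 libraries, as were 0.753% of all genes. The annotation assigns an antennapedia-type homeobox motif to the first locus and not to the second. The silent locus lies 4154 bases from GS homeobox 2 and 8135 bases from platelet-derived growth factor receptor alpha.

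Of 15 further islet transcription factors, 11 had pancreas among their 3 highest libraries, against 4.98% of all genes with any signal, and 4 had it first, against 1.37%. Forkhead box A2, a factor of gut and pancreas endoderm, was the only one enriched there, at 36.6 FPKM against 3.62 FPKM in maxillary barbel. It has 2 more annotated loci, at 20.9 and 19.7 FPKM in pancreas. The other 3 with pancreas first were low: NKX6-1, a beta cell factor, at 1.70 FPKM, MNX1 at 1.05 FPKM and RFX6 at 0.9997 FPKM. The pituitary was also the highest library for 4 of the 15, against 4.29% of all genes with any signal. In pituitary 1 of the 15 was enriched, against 0.359% of all genes. The list median was 1.78 FPKM in pituitary and 1.80 FPKM in pancreas. Factors that endocrine cells share with neurons or pituitary were higher elsewhere. NEUROD1 was at 1.99 FPKM in pancreas and 194 FPKM in the library labelled gill, PAX6 at 2.21 and 76.4 FPKM, and INSM1 at 2.88 FPKM in pancreas and 310 FPKM in pituitary. PAX4 was listed at 0 in pancreas. The 6 pancreas hormone genes, at 143 FPKM or more, were thus above all 15 factors in that library.

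Of 7 measured genes through which mammalian beta cells sense glucose and release insulin, 0 were highest in pancreas, again near the 1.37% of all genes. Glucokinase was at 8.88 FPKM in pancreas and at 347 FPKM in liver, and the glucose transporter SLC2A2 at 9.83 and 32.5 FPKM. Both had pancreas as their second library. The potassium channel subunits ABCC8 and KCNJ11 were at 0.160 and 0.434 FPKM in pancreas, and urocortin 3 was listed at 0 there.

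Of the 9 measured receptor genes for the hormones, 0 were highest in pancreas, a share near the 1.37% of all genes. The insulin receptor INSR was present in every library, highest in testis at 29.5 FPKM and ovary at 29.3 FPKM. The glucagon receptor GCGR has 2 loci: C0J50_20137 was highest in liver at 6.30 FPKM, and C0J50_17826 in the library labelled brain at 6.91 FPKM, with 4.16 FPKM in liver. Somatostatin receptor SSTR2 was highest in liver at 112 FPKM, with 25.3 FPKM in pituitary, SSTR1 in the library labelled gill at 27.0 FPKM, and SSTR5 in the library labelled brain at 12.7 FPKM. Among 7 gut endocrine peptides or relatives of the hormones, none was enriched in pancreas and 3 were highest there, against 1.37% of all genes. They were calcitonin gene-related peptide (CALCA, 6.27 FPKM), ghrelin (GHRL, 5.40 FPKM, with 5.22 FPKM in testis) and VIP (0.297 FPKM). A second CALCA locus (C0J50_03579) was highest in liver at 0.940 FPKM, with 0.0905 FPKM in pancreas. A second VIP locus (C0J50_01224) was highest in pancreas, at 0.0908 FPKM.

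Genes whose library pattern was most like that of a member were sought among named genes with at least 5 FPKM in some library, by Pearson r of log2(FPKM + 1) over 15 libraries, which is a description. For PC1 they were complexin-2, a protein of vesicle release (r = 0.993), the PC1 inhibitor-like gene (r = 0.991) and regulator of G protein signaling 16 (r = 0.970). Over the 14 libraries without pancreas only the last of these stayed among the 3 closest to PC1. For PC2 they were pleiotrophin (r = 0.975), a T-type calcium channel subunit alpha-1H-like gene (r = 0.975) and RUN domain-containing protein 3A (r = 0.970). For glucagon isoform 1 the closest gene was another hormone, peptide YYb (r = 0.979). For somatostatin 2 they included the somatostatin precursor (r = 0.9995), together with an astacin protease and a lipoprotein lipase-like gene. For insulin they were hepatic triacylglycerol lipase-like, chymotrypsin-like and endoplasmic reticulum resident protein 27. All genes with 1 high library give r near 1 with one another, so for the hormones these values rest on the pancreas library alone. With Spearman correlation 1 of the 27 genes so chosen was found again.

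The 13 genes lie on 12 scaffolds, the 2 somatostatin loci on scaffold178137 being the only pair on one. Both glucagon genes lie beside a dipeptidyl peptidase 4 gene, the enzyme that in mammals inactivates glucagon-like peptide. Dipeptidyl peptidase 4 is 1922 bases from glucagon isoform 1 (C0J50_15143) and 2477 bases from glucagon precursor (C0J50_19587). Neither shared the hormone's pattern: these were highest in kidney, at 7.74 and 30.2 FPKM, and were at 0.628 and 2.84 FPKM in pancreas. Of the 24 distinct neighbouring genes that are not themselves in the set, 0 were enriched in pancreas, a count near the 0.347% of all genes.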

How the data were processed

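Polyadenylated RNA was sequenced as paired-end libraries, 1 per tissue, from 15 tissues of adult Amur catfish, per the labels' protocols. The authors deposited FPKM values for 25089 genes. StringTie 1.3.4d was used, per the submitters' processing notes. Not given in the sources used here: aligner, genome build, filters and the treatment of reads that map to several genes. The FPKM columns sum to different totals, so they are not TPM. Protein names and positions, 1-based coding spans on unnamed-build scaffolds, were taken from the deposited annotation table, which holds 25122 loci, 25064 of them with FPKM values.

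Values were compared on log2(FPKM + 1) by fixed rules of size, applied to all genes, with no test because each tissue has 1 library. The rules were run on simulated data in which chosen genes were raised far above the limits in pancreas. That checks the code and not the calls made here. Depth per library is unknown beyond relative steps of FPKM times length, which were 0.0202 to 0.0226 in 11 libraries and 4.27 to 6.46 times the smallest in muscle, skin and both barbels, so low values are coarser there. The 10 gene lists (117 entries, 98 matched) and the 13 members were chosen with earlier results of these data known, and list patterns were adapted to the annotation's names. Where a symbol matched several loci, the locus with the highest mean FPKM over the libraries was used. The values of 1 list gene are not reported here, though the list counts include it. Named genes were all members, list genes, and for each member that reached 5 FPKM the 3 genes most like it. Alternatives were a pseudocount of 0.1, other FPKM minimums, a 10-fold rule, rescaling by median ratios (5659 genes) or to a common sum, and leaving out the libraries labelled brain and gill. Python 3.11.15, pandas 2.3.3, numpy 2.4.6 and matplotlib 3.10.9 were used. No sequences were read, since no genome was used here.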

Additional observations from a re-analysis of the deposited data

How the results depend on the processing

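Of the counts recomputed, the 8 tissue-enriched genes were 7 or 8 under every alternative run; the one lost was the PDX1 locus C0J50_13439. Genes lower in pancreas than pituitary were 2 as reported and 1 both after rescaling by median ratios and under a 10-fold rule, where PC1 no longer passed. Genes at the detection limit in pituitary were 4 as reported and 2 with a minimum of 5 FPKM. Of the 27 most-like genes, 1 was also found with Spearman correlation and 18 with a pseudocount of 0.1. Related-list loci enriched in pancreas among islet factors were 1 with the highest locus per symbol and 3 with every locus. Of the convertase differences, recomputed under alternatives chosen after seeing the data, PC2 between the library labelled gill and pancreas was 1.29 and PC1 between pituitary and pancreas was 1.26 after rescaling by median ratios, and PC1 between the library labelled gill and pancreas was 2.27 after rescaling to a common sum. PC1 differed by 0.24 between the library labelled gill and pancreas by median ratios and by 0.18 between pituitary and the library labelled gill on a common sum. Genes highest in pancreas were 8 as reported and 7 on a common sum, where somatostatin-2 (C0J50_15502), at 0.186 FPKM, had another highest library. The causes were not tested, and no convertase difference changed sign. No paired analysis was possible because each tissue has 1 library. Levels under 1 FPKM rest on few fragments, and 1 library per tissue cannot separate tissue from fish or preparation.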
